A study of Mus musculus with 9 samples.

Results

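The extracellular matrix proteases and their inhibitors described here are the 50 protein-coding genes of the mouse Mmp, Timp, Adamts and Adamts-like families, chosen by symbol from the 47729 genes of the count table. They comprise 22 Mmp genes, 4 Timp genes, 19 Adamts genes and 5 Adamts-like genes. The rule used no measured value, but it was set with earlier results of these data known. RNA was measured by sequencing in cultured C2C12 cells, mouse myoblasts of an established line that fuse into myotubes after a switch from fetal bovine to horse serum. WT cells had received a non-target guide RNA, and in Per1KO and Per2KO cells the circadian clock repressor genes Per1 and Per2 had been disrupted with CRISPR-Cas9. Each of the 3 populations was sampled on day 0, before the switch, and on days 3 and 5 after it, with 1 library for each population and day. The tissue is labelled whole muscle, although the protocols describe cultured cells, and whether a knockout was a clone or a pool is not given in the sources used here.

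Matrix metalloproteinases (Mmp) are zinc enzymes that cleave collagens, laminins and other matrix proteins, and most are made as inactive proforms. Tissue inhibitors of metalloproteinases (Timp) block the active enzymes, and Timp2 together with the membrane protease Mmp14 also helps to activate the proform of Mmp2 at the cell surface. Adamts enzymes are secreted relatives that cleave proteoglycans or process procollagens, and Adamts-like proteins share their ancillary domains but lack the protease domain. In muscle these families take part in the remodelling of the matrix around migrating and fusing myoblasts.

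Library totals ranged from 5020385 to 6773320 counts in WT and from 41997763 to 48051824 in the knockouts, and even the shallowest knockout library was 6.20 times as deep as the deepest WT library. A lane suffix in the titles followed the same split, and genotype, depth and batch cannot be told apart. Levels are depth-scaled counts with TMM normalization (trimmed mean of M values), called CPM below, and a count of 0 allows up to 0.424 to 0.66 CPM in WT libraries and 0.0591 to 0.0731 CPM in knockout libraries. Per1 transcripts stood at 35.6, 33.8 and 31.01 CPM in WT on days 0, 3 and 5, at 20.9, 32.4 and 29.0 in Per1KO, and at 16.5, 30.4 and 32.9 in Per2KO, so the transcript level did not single out the Per1KO libraries. Per2 stood at 9.75, 11.5 and 20.5 CPM in WT, at 6.59, 9.44 and 10.6 in Per1KO, and at 3.50, 9.13 and 8.38 in Per2KO, lower in both knockouts than in WT on each day. All 6 myoblast markers (Myod1, Myf5, Des, Cdh15, Itga7, Myog) had counts in all 9 libraries, with a summed level of 2857 to 9099 CPM. The 6 macrophage markers summed to at most 2.86 CPM and the 6 endothelial markers to at most 3.75 CPM. Of 5 adipocyte markers, Adipoq and Cidec had 0 counts in all libraries and Plin1 and Fabp4 stayed under 1 CPM. The lipase gene Lpl, which muscle cells also express, moved with day, at 33.75, 51.1 and 94.8 CPM in WT on days 0, 3 and 5, 42.9, 143.1 and 122.6 in Per1KO, and 61.75, 170.9 and 155 in Per2KO, and its part in the results was not tested.

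Markers of fibroblasts moved with both comparisons. The 6 listed (Pdgfra, Thy1, Dpt, Pi16, Lum, Dcn) summed to 77.7, 661 and 814 CPM in WT on days 0, 3 and 5, to 14.8, 691 and 743 in Per1KO, and to 22.7, 725 and 832 in Per2KO. Decorin (Dcn), which differentiating muscle cells also make, accounted for most of each sum except in Per1KO on day 0. There Dcn stood at 6.57 CPM and Pdgfra at 7.28 CPM. Dpt reached 142.5 CPM in WT and at most 6.16 CPM in the knockouts, Pi16 reached 33.2 CPM against at most 1.93, Lum reached 12.3 CPM against at most 0.438, and Pdgfra spanned 12.8 to 22.7 CPM in WT and 6.96 to 10.2 in the knockouts. Thy1 had 0 counts in all 9 libraries. The myogenic regulator Myog stood at 124, 868 and 1060 CPM in WT and at most 351 CPM in the knockouts. The part of these differences in the protease results below was not tested, and in bulk RNA fewer cells of a type cannot be told apart from less RNA per cell.

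Of the 50 genes, 31 had at least 1 CPM, here before TMM scaling, in at least 3 libraries and were tested. They were 11 Mmp, 3 Timp, 12 Adamts and all 5 Adamts-like genes. Among the other 19 genes, 6 had 0 counts in every library (Adamts13, Adamts19, Mmp1b, Mmp7, Mmp20 and Mmp21) and 13 were detected below that level (Adamts3, Adamts9, Adamts17, Adamts18, Adamts20, Mmp8, Mmp9, Mmp13, Mmp17, Mmp24, Mmp25, Mmp27 and Timp4). Mmp23 passed only through WT libraries, Mmp12 only through knockout libraries, and Adamts8 and Adamtsl2 only through day 3 and day 5 libraries, so their differences in those directions were favoured by the filter. With no filter, edgeR called Adamts9, Adamts17, Mmp13 and Timp4 higher and Mmp17 lower on day 5, and Adamts17 and Timp4 higher on day 3. That fit called 24.8% of 26159 genes on day 5 and 17.8% on day 3. None of these members had more than 7 counts in a WT library. Together the 50 genes held 0.213 to 0.547% of a library's counts.

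After division by exon length, the inhibitor genes Timp2 and Timp1 had the highest mean levels of the members. In CPM without that division, Timp2 at 2059 was followed by Mmp14 at 394.7 and Timp1 at 222.3. Per kilobase of exon, mean levels over the 9 libraries were 528.5 CPM per kb for Timp2 and 250.3 CPM per kb for Timp1, ahead of 66.2 for Mmp14, 51.6 for Mmp2, 39.1 for Mmp11 and 37.1 for Adamtsl5. Adamts4 at 27.8, Adamts1 at 23.0 and Adamts7 at 20.0 CPM per kb were the most abundant Adamts genes. Timp3, at 19.4 CPM per kb, came below all of these. Neighbours in this order, such as Mmp14 and Mmp2, overlapped across the 9 libraries. In WT on day 5 Mmp2 stood above Timp1, at 263 and 165 CPM per kb, while in the knockouts Mmp2 reached at most 17.1.

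Most tested members were higher after the switch to horse serum. On day 3 against day 0, 20 of the 31 tested members rose and 2 fell at an adjusted p under 0.05, against 18.1% of all 13324 tested genes higher, 16.9% lower and 35% in either direction. On day 5, 21 rose and 3 fell, against 23.2% and 22.9% of all genes (46.1% in either direction). The median member changed by 1.71 (log2) on day 3 and by 1.74 on day 5, beside -0.01 for the median of all tested genes on both days. Every Adamts-like gene and every tested proteoglycanase Adamts gene rose on both days, while Mmp10 and Mmp28 fell on both. For 12 members, all 6 libraries of days 3 and 5 lay above all 3 of day 0 (38.7%, against 16.5% of all tested genes), and for 1 member, Mmp10, they all lay below (against 15.5%). A rise was favoured for Adamts8 and Adamtsl2, each among the 12, since they passed the filter only through day 3 and day 5 libraries. In fits without Per1KO or Per2KO, which left 2 residual degrees of freedom in place of 4, 11 and 13 members were called on day 3. The share of all genes called in those fits was 8.37% and 10.6%, in place of 35%. Without WT the count was 24, with 58% of all genes called. Whether the lower counts came from the smaller number of libraries was not tested.

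**Figure D1:**
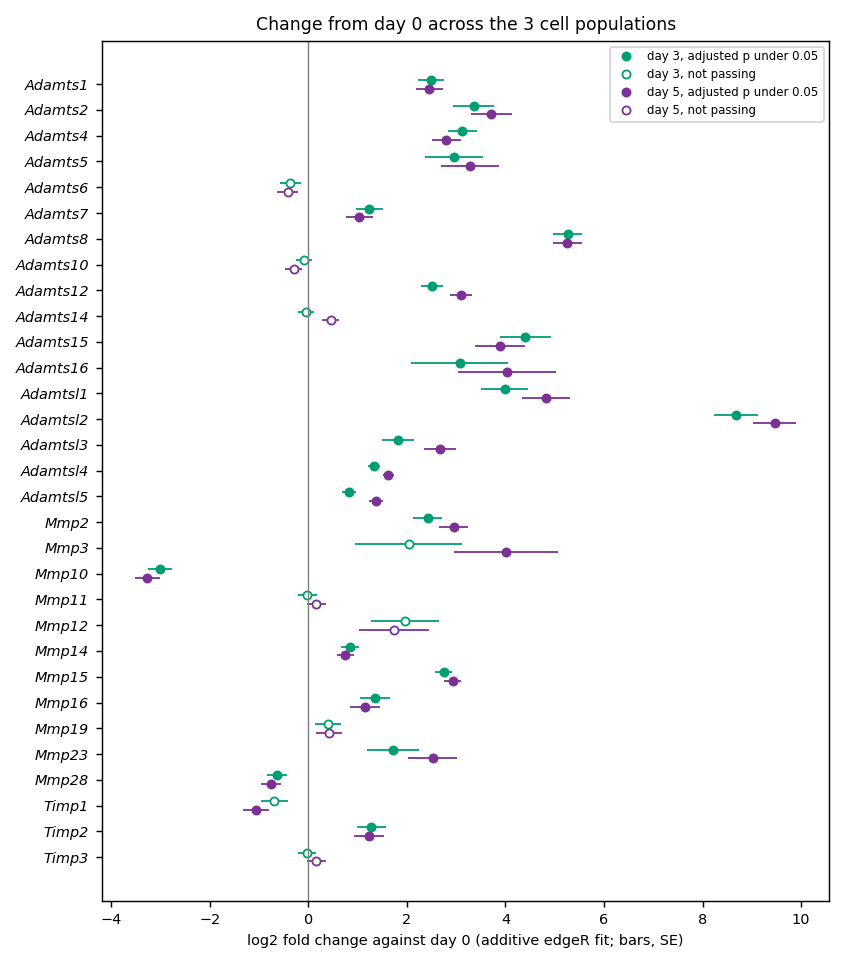
Change of each of the 31 tested members on days 3 and 5 against day 0, as log2 fold change from an additive fit over the 3 populations, with standard errors as bars; filled points passed an adjusted p of 0.05. Most points lie to the right of 0, with Adamtsl2 farthest at 8.68 and 9.46, and Mmp10 lies farthest to the left at -3.01 and -3.27.

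The knockouts held lower levels of a subset of members. In Per1KO, 11 members were lower than in WT and 2 higher, against 10.1% and 9.26% of all tested genes (19.3% in either direction). In Per2KO, 10 were lower and 2 higher, against 10.6% and 9.31% (19.9% in either direction). The members' median difference was -0.40 (log2) in Per1KO and -0.35 in Per2KO, beside -0.02 and -0.01 for all genes. Both knockouts share the same 3 WT libraries, so the comparisons are not independent of each other. For 5 members (Mmp2, Mmp19, Mmp23, Adamts14 and Adamts10) all 6 knockout libraries lay below all 3 WT libraries, which is 16.1% of the members against 8.11% of all tested genes, and for 0 members did they all lie above, against 9.84%. A lower level in the knockouts was favoured for Mmp23, which passed the filter only through WT libraries. The WT libraries also held the higher levels of Dpt, Pi16, Lum, Pdgfra and Myog given above, and of Myod1 on each day. Other markers of the same lists went the other way on later days. Dcn stood at 540 and 603 CPM in WT on days 3 and 5, at 679 and 728 in Per1KO, and at 711 and 814 in Per2KO. Des, Cdh15 and Itga7 were lower in both knockouts than in WT on day 0 and higher in both on day 5. Whether those differences bear on the lower protease levels was not tested. Fits that left out a day had 2 residual degrees of freedom in place of 4. They called 14 members in each knockout without day 0, 7 in each without day 3 and 6 in each without day 5. In those fits 20.4, 6.85 and 5.29% of all genes were called in Per1KO, and 23, 6.22 and 5.82% in Per2KO.

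**Figure D2:**
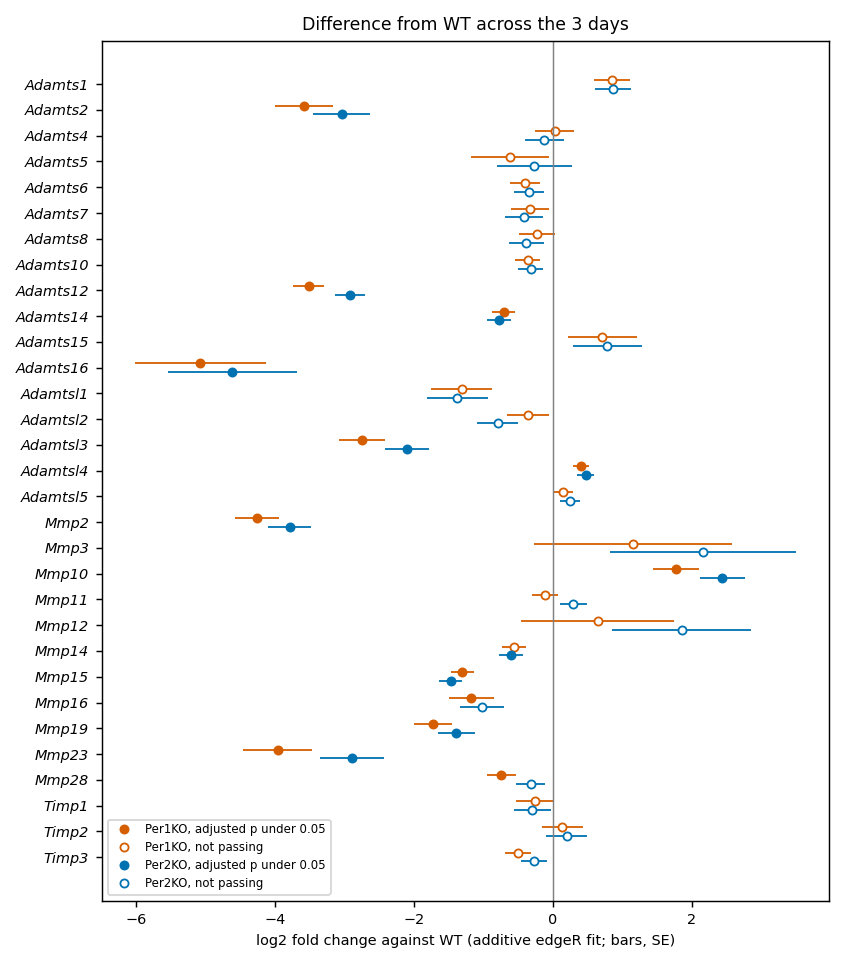
Difference of Per1KO (orange) and Per2KO (blue) from WT for each of the 31 tested members, as log2 fold change from an additive fit over the 3 days, with standard errors as bars; filled points passed an adjusted p of 0.05. Adamts16, Mmp2, Mmp23, Adamts2 and Adamts12 lie farthest to the left in Per1KO, between -5.08 and -3.52, and Mmp10 is the called gene farthest to the right.

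Single library pairs, which carry no test, gave the counts for each day separately. Against WT of the same day, 15 of 28, 10 of 29 and 15 of 32 members with at least 1 CPM in either library differed at least 2-fold in Per1KO on days 0, 3 and 5, beside 16.8%, 17.8% and 20.6% of all genes. In Per2KO these counts were 15 of 28, 15 of 31 and 14 of 32, beside 17.5%, 18.9% and 20.8%. Within WT, 17 of 30 members on day 3 and 20 of 31 on day 5 differed at least 2-fold from day 0, beside 19% and 25.9% of all genes. Within Per1KO they were 23 of 29 and 20 of 29, beside 20.6% and 27.2%, and within Per2KO 21 of 30 and 23 of 31, beside 20.3% and 25.4%.

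The gelatinase Mmp2, which cleaves denatured collagen and basement membrane collagen, had the largest difference between WT and the knockouts among the abundant members. Its gene lies on chromosome 8 at chr8:92827291-92853420 (GRCm38, plus strand). Mmp2 stood at 128, 364 and 887 CPM in WT on days 0, 3 and 5, at 4.14, 37.99 and 36.9 in Per1KO, and at 7.30, 41.2 and 57.5 in Per2KO. The lowest WT library thus lay above the highest knockout library, although the level rose in each population. The WT level was 31.03, 9.59 and 24.01 times that of Per1KO on the 3 days, and 17.6, 8.84 and 15.4 times that of Per2KO. The fitted log2 difference was -4.27 (SE 0.32, adjusted p = 0.000141) in Per1KO and -3.79 (SE 0.31, adjusted p = 0.000218) in Per2KO, and both calls stood in every alternative fit. Against day 0, Mmp2 rose by 2.42 (log2, SE 0.30, adjusted p = 0.000897) on day 3 and by 2.94 (SE 0.30, adjusted p = 0.000195) on day 5. The other gelatinase, Mmp9, had at most 3 counts in any library.

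The membrane-anchored Mmp genes encode proteases held at the cell surface. Mmp14, the chief activator of Mmp2, stood at 391, 493 and 604 CPM in WT on days 0, 3 and 5, at 208, 484 and 362 in Per1KO, and at 214, 414 and 383 in Per2KO. Its day 3 Per1KO library came close to the WT library of that day, and the knockout and WT ranges overlapped. Mmp14 rose by 0.84 (log2, SE 0.18, adjusted p = 0.00882) on day 3 and by 0.75 (SE 0.18, adjusted p = 0.00955) on day 5, calls lost without Per1KO (0.65 and 0.73) or Per2KO (0.79 and 0.70). It was lower in Per2KO by -0.61 (SE 0.18, adjusted p = 0.0456), a call lost in 7 of 9 alternative fits, among them those without any 1 day (-0.48, -0.77 and -0.59 without days 0, 3 and 5). In Per1KO the difference of -0.56 (SE 0.18) did not pass the test (adjusted p = 0.0594), but was called with DESeq2 (-0.56) and without day 3 (-0.83).

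Mmp15, a membrane protease that can also activate Mmp2, was lower in both knockouts on every day. It stood at 17.4, 84.7 and 131 CPM in WT on days 0, 3 and 5, at 5.98, 45.7 and 46.6 in Per1KO, and at 5.37, 41.8 and 40.1 in Per2KO. All day 3 and day 5 libraries lay above all day 0 libraries. The difference from WT was -1.31 (log2, SE 0.17, adjusted p = 0.00152) in Per1KO and -1.47 (SE 0.17, adjusted p = 0.000936) in Per2KO, and both calls stood without any 1 day. The rise from day 0 was 2.75 (SE 0.17) on day 3 and 2.93 (SE 0.17) on day 5, with adjusted p-values of 7.26e-05 and 1.78e-05. Mmp16, the least abundant of the 3 tested, stood at 1.98, 4.01 and 6.38 CPM in WT, at 0.953, 2.96 and 1.54 in Per1KO, and at 1.06, 2.53 and 2.39 in Per2KO. It was called lower in Per1KO (-1.18, SE 0.33, adjusted p = 0.0409), a call lost in 5 of 8 alternative fits, among them those without any 1 day (-1.22, -1.61 and -0.72 without days 0, 3 and 5). Its difference in Per2KO was -1.03 (SE 0.32, adjusted p = 0.0602), called only with DESeq2. Mmp17, Mmp24 and Mmp25 stayed under 1 CPM in all libraries.

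The stromelysins Mmp3 and Mmp10, which cleave a broad range of matrix proteins and proforms of other Mmp enzymes, lie in a cluster of 9 members on chromosome 9 that spans 427072 bp (chr9:7272514-7699585, GRCm38). The order along the chromosome is Mmp13, Mmp12, Mmp1b, Mmp3, Mmp10, Mmp8, Mmp27, Mmp20 and Mmp7, of which 3 were tested and 3 had 0 counts in all libraries. The promoters of the collagenase gene Mmp13 and the stromelysin genes Mmp3 and Mmp10 are shown for their time courses. Mmp10 fell with differentiation, while in the knockouts Mmp3 and the untested Mmp13 were higher on days 3 and 5 than on day 0. Each window runs from 250 bases before to 50 bases after the RefSeq start of the gene (GRCm38.p6, 5′ to 3′, plus strand), at chr9:7272264-7272563 for Mmp13, chr9:7445572-7445871 for Mmp3 and chr9:7502092-7502391 for Mmp10. Capitals mark TATAAA, the TATA box, and TGANTCA, a loose form (N is any base) of the motif of the AP-1 (Fos and Jun) transcription factors.
Mmp13: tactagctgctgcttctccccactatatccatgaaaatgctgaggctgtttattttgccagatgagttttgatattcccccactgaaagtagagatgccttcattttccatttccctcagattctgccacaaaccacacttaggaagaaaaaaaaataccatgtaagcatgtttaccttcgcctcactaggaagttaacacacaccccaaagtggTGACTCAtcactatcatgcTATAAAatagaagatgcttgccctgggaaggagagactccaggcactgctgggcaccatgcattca
Mmp3: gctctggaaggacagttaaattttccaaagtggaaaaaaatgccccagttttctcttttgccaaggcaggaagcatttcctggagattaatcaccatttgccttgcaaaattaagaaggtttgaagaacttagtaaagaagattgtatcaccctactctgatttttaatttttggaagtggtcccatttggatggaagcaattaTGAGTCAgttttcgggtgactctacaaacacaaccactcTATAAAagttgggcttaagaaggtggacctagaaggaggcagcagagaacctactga
Mmp10: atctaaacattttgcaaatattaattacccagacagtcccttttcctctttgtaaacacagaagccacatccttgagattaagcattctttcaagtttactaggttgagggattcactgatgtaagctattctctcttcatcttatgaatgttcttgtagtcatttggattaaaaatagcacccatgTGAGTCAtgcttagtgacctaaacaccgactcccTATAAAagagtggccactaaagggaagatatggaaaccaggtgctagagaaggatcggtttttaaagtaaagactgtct

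Both strands were searched for these, for CACGTG (the E-box bound by clock factors) and for CAGCTG (an E-box of myogenic factors). They were also searched for CTANNNNTAG, a loose form of the motif of Mef2 factors, which can overlap the TATA box. Promoters were found by symbol for 35 of the 50 members, which have 38 windows. TGANTCA occurred in 7 of the 38 windows, 18.4% against 7.81% of all 32851 promoter windows, and all 7 (Mmp1b, Mmp3, Mmp7, Mmp10, Mmp12, Mmp13 and Mmp20) belong to the chromosome 9 cluster. The match in Mmp20 read TGAATCA, and the others had C or G at N. The first base of TGANTCA lay 35 bases before the start of Mmp13, 46 before that of Mmp3 and 63 before that of Mmp10. TATAAA occurred in 11 of the 38 windows (28.9% against 13.6% of all windows), CAGCTG in 9 (23.7% against 16.3%), CACGTG in 2 (5.26% against 7.15%) and CTANNNNTAG in 0 (against 3.69%). A match of these letters is a description of the window and not a measured binding site.

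Mmp10 fell more with differentiation than any other tested member, and was higher in both knockouts. It stood at 2.40, 0.365 and 0.220 CPM in WT on days 0, 3 and 5 (17, 2 and 1 counts), at 7.81, 0.932 and 1.06 in Per1KO, and at 14.3, 1.76 and 1.12 in Per2KO. All day 3 and day 5 libraries lay below all day 0 libraries, and within each day both knockouts lay above WT. The fall from day 0 was -3.01 (log2, SE 0.24, adjusted p = 0.000165) on day 3 and -3.27 (SE 0.25, adjusted p = 5.2e-05) on day 5. On day 0 the level was 3.25 times that of WT in Per1KO (95% exact interval 2.005 to 5.64, counting error only) and 5.94 times in Per2KO (3.69 to 10.3). On day 5, with 1 WT count, the ratios were 4.81 (0.819 to 194) and 5.10 (0.870 to 206). Across days the difference was 1.77 (SE 0.33, adjusted p = 0.00905) in Per1KO and 2.43 (SE 0.32, adjusted p = 0.00187) in Per2KO. The Per1KO call was lost without any 1 day (1.72, 1.89 and 1.62 without days 0, 3 and 5), and the Per2KO call without day 0 (2.25).

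Mmp3 took the opposite course to Mmp10 in the knockouts. Its counts were 8, 0 and 0 in WT on days 0, 3 and 5, 5, 45 and 162 in Per1KO, and 14, 90 and 323 in Per2KO, which is 1.13, 0 and 0 CPM, 0.101, 0.932 and 3.89 CPM, and 0.276, 1.86 and 7.87 CPM. On day 0 WT held the highest level of the 3 populations, and on days 3 and 5 both knockouts lay above the WT libraries, which had no count. Set against a floor of 3 counts in the WT library, the day 5 level was at least 5.90-fold higher in Per1KO and at least 11.9-fold higher in Per2KO. On day 0 the WT level was 11.1 times that of Per1KO (3.21 to 43.3) and 4.10 times that of Per2KO (1.49 to 10.5). From day 0 to day 5 the level rose 38.4-fold (16.1 to 120) in Per1KO and 28.5-fold (16.8 to 52.8) in Per2KO. The additive fit called Mmp3 higher on day 5 than on day 0 (4.01, SE 1.06, adjusted p = 0.0172), a call lost in 4 of 7 alternative fits: without Per1KO (2.71), with DESeq2 (1.54), with no filter (3.985) and with only the libraries of those days (3.94). Without WT it was called higher on day 3 too (2.88). Without day 0 it was called higher than WT in both knockouts. In that fit Mmp3 passed the filter only through knockout libraries, which favoured that direction. Mmp3 shares 14.6% of its 31-base words with other genes, among them Mmp10, which shares 11.9%, so reads of the shared stretches are uncertain between them.

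Elsewhere in the cluster, Mmp13, which cleaves fibrillar collagen, had 3, 0 and 2 counts in WT, 12, 36 and 44 in Per1KO, and 27, 34 and 108 in Per2KO. Its highest level was 2.63 CPM in Per2KO on day 5, and it was below the level for testing. The elastase gene Mmp12 stood at 0, 0 and 1.1 CPM in WT, 0.0811, 1.01 and 0.505 in Per1KO, and 0.591, 1.33 and 1.29 in Per2KO, and edgeR over all 9 libraries called it in no comparison. DESeq2 called Mmp12 higher on day 5 (2.45, adjusted p = 0.0224), and without WT edgeR called it higher on days 3 and 5 (1.92 and 1.44). Mmp8 had at most 6 counts and Mmp27 had 1 count in a single library. Mmp11, a stromelysin-like gene on chromosome 10 whose product is activated inside the cell by furin, was the steadiest abundant Mmp gene, at 85.8 to 118.5 CPM in WT, 72.03 to 109.6 in Per1KO and 117 to 142 in Per2KO, and passed no test. Its exons overlap those of Chchd10 on the opposite strand, and whether counting used strand is not given in the sources used here.

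Of the remaining Mmp genes, Mmp19 and Mmp23 were lower in both knockouts. Mmp19, which cleaves basement membrane components, stood at 28.3, 26.6 and 44.0 CPM in WT on days 0, 3 and 5, at 6.31, 13.6 and 10.5 in Per1KO, and at 12.2, 13.1 and 11.7 in Per2KO. The groups did not overlap, and the difference was -1.73 (log2, SE 0.27, adjusted p = 0.00378) in Per1KO and -1.39 (SE 0.26, adjusted p = 0.00918) in Per2KO. Both calls were lost without day 5 (-1.55 and -1.14). Mmp19 overlaps Tmem198b exons on the opposite strand.

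Mmp23, an atypical protease with a membrane anchor at its start, stood at 1.70, 2.01 and 7.26 CPM in WT, at 0.0406, 0.269 and 0.408 in Per1KO, and at 0.0984, 0.642 and 0.755 in Per2KO. Every knockout library lay below every WT library, with 2 to 31 counts in the knockouts and 11 to 33 in WT. The difference was -3.96 (SE 0.50, adjusted p = 0.0015) in Per1KO and -2.90 (SE 0.47, adjusted p = 0.00443) in Per2KO, and both stood in the 5 alternative fits that tested the gene. Mmp23 passed the filter through the WT libraries alone, so leaving out a day left it untested. Mmp28, a secreted protease known as epilysin, stood at 25.0, 10.6 and 13.0 CPM in WT, at 10.6, 9.46 and 7.66 in Per1KO, and at 17.4, 11.05 and 9.74 in Per2KO. It fell by 0.64 (log2, SE 0.20, adjusted p = 0.0388) on day 3 and by 0.76 (SE 0.20, adjusted p = 0.0166) on day 5, and was lower in Per1KO by -0.74 (SE 0.21, adjusted p = 0.0421). The day calls were lost without Per1KO (-0.92 and -0.90) or Per2KO (-0.66 and -0.72), the day 3 call also without WT (-0.42), and the Per1KO call in 6 of 9 alternative fits, among them those without any 1 day (-0.47, -1.02 and -0.74 without days 0, 3 and 5).

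**Figure D3:**
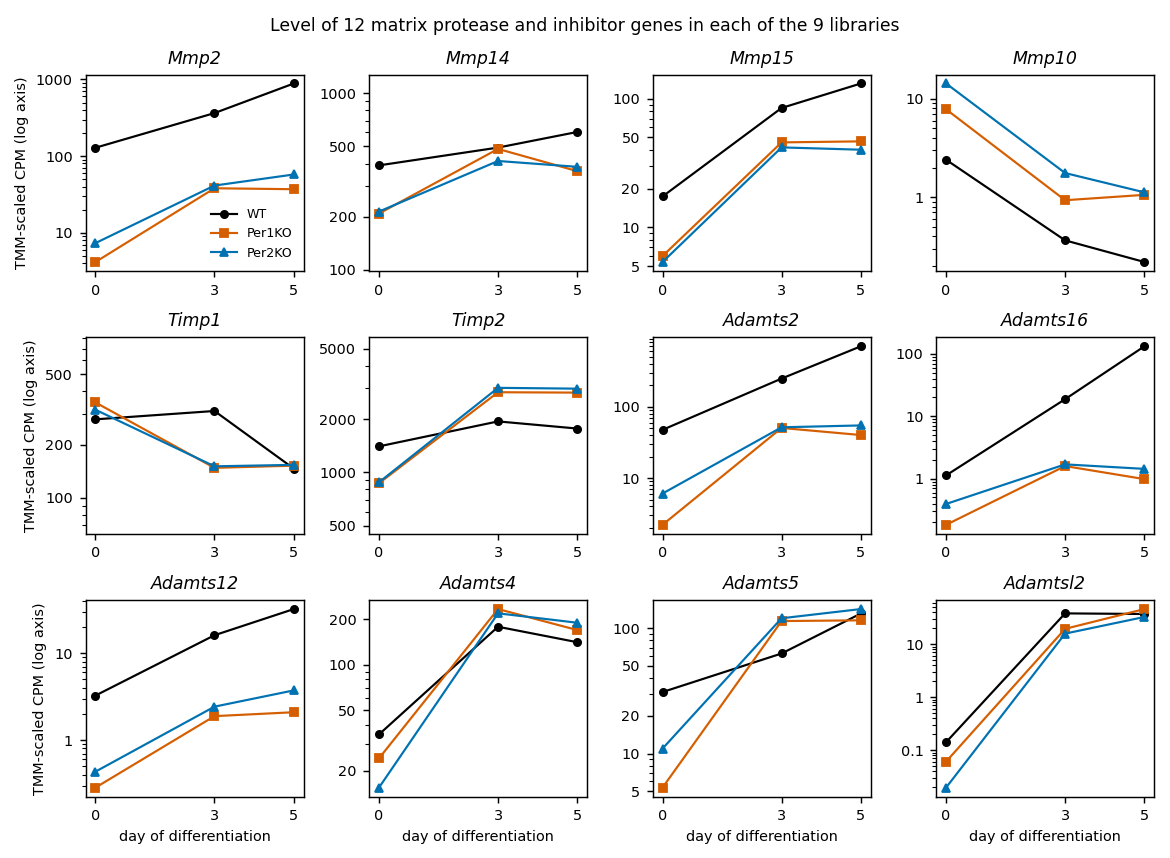
TMM-scaled CPM (log axis) of 12 members against day of differentiation, with 1 point for each of the 9 libraries and lines joining the days of a population (WT black circles, Per1KO orange squares, Per2KO blue triangles). Mmp2, Adamts2, Adamts12 and Adamts16 run lower in the knockouts on each day, Mmp10 runs higher, and the Timp2, Adamts4 and Adamts5 lines of WT and the knockouts cross.

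Over all 9 libraries 0 of 3 tested Timp genes were called in either knockout by edgeR, against 19.3% and 19.9% of all genes, or by DESeq2, and 1 (Timp3 in Per1KO) was lower at an unadjusted p under 0.05. Timp2 (chr11:118301069-118355740) stood at 1404, 1944 and 1771 CPM in WT on days 0, 3 and 5, at 868, 2844 and 2830 in Per1KO, and at 878.5, 3012 and 2980 in Per2KO. Both knockouts lay below WT on day 0 and above it on days 3 and 5. It rose by 1.27 (log2, SE 0.30, adjusted p = 0.0141) on day 3 and by 1.23 (SE 0.30, adjusted p = 0.0114) on day 5, and these calls were lost without Per1KO (1.06 and 1.00) or Per2KO (1.04 and 0.97). The rise from day 0 to days 3 and 5 was larger than in WT by 1.30 (SE 0.32, unadjusted p = 0.00592, adjusted p = 0.291) in Per1KO and by 1.37 (SE 0.32, unadjusted p = 0.00477, adjusted p = 0.183) in Per2KO, which did not pass the test. With both knockouts as 1 level it was called (1.34), and DESeq2 called it in each. Leaving out day 0, Timp2 was called higher than WT in both knockouts, by 0.60 and 0.68.

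Timp1, an inhibitor induced in growing and injured tissue, stood at 278, 310.1 and 146 CPM in WT, at 347, 148 and 152 in Per1KO, and at 315, 151 and 154 in Per2KO. The 3 populations had nearly the same level on day 5, and on day 3 the WT library lay above both knockouts. Timp1 fell by 1.06 (log2, SE 0.26, adjusted p = 0.0127) on day 5, a call lost without Per1KO (-0.99) or Per2KO (-1.08), and changed by -0.69 (SE 0.27, adjusted p = 0.0793) on day 3. The day 3 change was called with DESeq2 (-0.70) and, at a larger size, without WT (-1.15). Timp3, which binds to the matrix and also inhibits Adamts enzymes, stood at 188, 141 and 237 CPM in WT, at 112, 147 and 136 in Per1KO, and at 164, 151.5 and 148 in Per2KO. It passed no test, and Syn3 exons overlap it on the opposite strand. Timp4 had at most 32 counts and 0.769 CPM in any library.

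Summed over genes and per kilobase, Mmp transcripts reached 163, 249 and 452 CPM per kb in WT on days 0, 3 and 5, 72.7, 147 and 128 in Per1KO, and 107, 141 and 145 in Per2KO. The sums were lower in both knockouts than in WT on each day. Mmp2 made up 23.3, 43.4 and 58.2% of the sum in WT and 1.69 to 8.53% in Per1KO and 2.02 to 11.8% in Per2KO, where Mmp14 was the leading gene on days 3 and 5. Timp sums were 697, 866 and 648.5 CPM per kb in WT, 627, 914 and 914 in Per1KO, and 601, 962 and 956 in Per2KO. The ratio of the Timp sum to the Mmp sum was 4.27, 3.48 and 1.44 in WT, 8.62, 6.21 and 7.12 in Per1KO, and 5.61, 6.81 and 6.603 in Per2KO. On each day it was higher in both knockouts than in WT, with the widest gap on day 5. These sums are of transcripts, with 1 library each and no test, and do not measure enzyme activity.

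**Figure D4:**
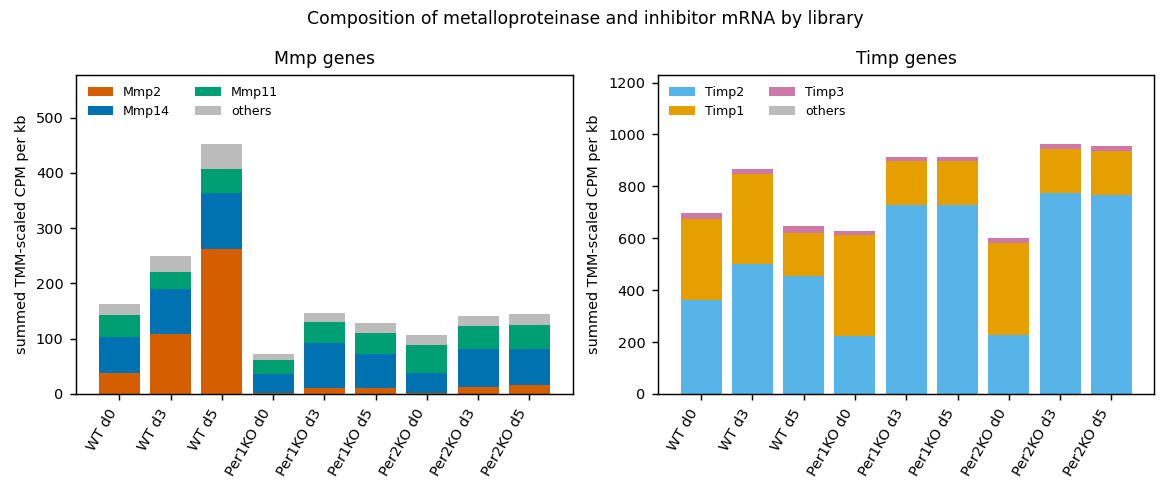
Summed TMM-scaled CPM per kilobase of exon of the Mmp genes (left) and Timp genes (right) in each of the 9 libraries, as stacked bars split by gene. The Mmp2 segment grows from 23.3 to 58.2% of the Mmp sum in WT and is at most 11.8% in the knockouts, and Timp2 takes the larger part of the Timp sum on days 3 and 5.

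The proteoglycanase Adamts genes, whose products cleave versican and aggrecan, rose together with differentiation. All 5 tested were called higher on both days, against 18.1% and 23.2% of all genes. Of these, Adamts8 passed the filter only through libraries of those days, so its rise was favoured. Over all 9 libraries edgeR called 0 of 5 in either knockout, against 19.3% and 19.9% of all genes. At an unadjusted p under 0.05, 1 (Adamts1) was higher in each, and DESeq2 called Adamts1 higher in both. In edgeR, Adamts1 was called higher in Per2KO with DESeq2 size factors (0.865) and with no filter (0.94), and without day 0 Adamts1 (1.17 and 1.11) and Adamts15 (1.21 and 1.29) were called higher in both knockouts. Adamts5, an aggrecanase and versicanase, stood at 30.9, 62.8 and 131 CPM in WT on days 0, 3 and 5, at 5.35, 114 and 115 in Per1KO, and at 10.95, 119.8 and 142 in Per2KO. The knockouts lay below WT on day 0 and above it on day 3, and all later libraries lay above the day 0 libraries. It rose by 2.96 (log2, SE 0.59, adjusted p = 0.00799) on day 3 and by 3.28 (SE 0.58, adjusted p = 0.00314) on day 5. The day 3 call was lost without Per1KO (2.22) or Per2KO (2.64), and the day 5 call without Per2KO (3.01).

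Adamts4, the other classical aggrecanase, stood at 34.7, 178 and 141 CPM in WT, at 24.2, 233 and 169 in Per1KO, and at 15.5, 218 and 189 in Per2KO. It rose by 3.12 (SE 0.30, adjusted p = 0.000325) on day 3 and by 2.80 (SE 0.30, adjusted p = 0.000246) on day 5. Adamts1, which cleaves both versican and aggrecan, stood at 25.4, 73.5 and 112 CPM in WT, at 28.1, 239 and 182 in Per1KO, and at 32.9, 211 and 191.5 in Per2KO. Both knockouts lay above WT on each day, by 1.105 to 3.25-fold in Per1KO and 1.295 to 2.87-fold in Per2KO, and the difference across days of 0.84 (SE 0.26, adjusted p = 0.0574) and 0.86 (SE 0.26, adjusted p = 0.0521) did not pass the test. Adamts1 rose by 2.48 (SE 0.27) on day 3 and by 2.46 (SE 0.27) on day 5, with adjusted p-values of 0.000533 and 0.000275.

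Adamts8 and Adamts15 had their lowest levels on day 0 and rose in all 3 populations. Adamts8 stood at 0.141, 10.0 and 6.82 CPM in WT, at 0.223, 6.52 and 7.23 in Per1KO, and at 0.138, 6.04 and 7.04 in Per2KO. The WT library of day 0 held 1 count, and the rise to day 5 was 48.3-fold (8.04 to 1967) in WT, 32.4-fold (17.9 to 65.7) in Per1KO and 51.1-fold (24.5 to 128) in Per2KO, with intervals that overlap. Adamts15, a versican-cleaving enzyme of developing muscle, stood at 2.12, 11.1 and 5.94 CPM in WT, at 0.771, 23.8 and 16.0 in Per1KO, and at 0.787, 23.1 and 18.4 in Per2KO. Knockout levels lay below WT on day 0 and above it afterwards, and the gene rose by 4.41 (SE 0.52) on day 3 and by 3.89 (SE 0.52) on day 5, with adjusted p-values of 0.000787 and 0.000782. The day 3 call was lost without Per1KO (3.84). Adamts9 and Adamts20 were below the level for testing, with at most 13 and 2 counts.

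Among the procollagen N-proteinases, which remove the amino-terminal propeptide of fibrillar procollagens, Adamts2 was the most abundant per kilobase after Adamts14. Its promoter is shown because it combined a rise with differentiation and a lower level in the knockouts. The window is chr11:50601835-50602134 (GRCm38.p6, RefSeq, plus strand, 5′ to 3′), and capitals mark CAGCTG, which began 24 and 8 bases before the start.
Adamts2: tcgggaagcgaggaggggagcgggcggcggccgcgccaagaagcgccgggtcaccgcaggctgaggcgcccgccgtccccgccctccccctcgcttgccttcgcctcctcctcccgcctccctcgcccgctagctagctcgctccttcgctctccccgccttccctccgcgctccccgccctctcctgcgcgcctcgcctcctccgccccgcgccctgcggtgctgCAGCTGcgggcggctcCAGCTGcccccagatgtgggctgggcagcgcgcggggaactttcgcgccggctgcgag

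Adamts2 stood at 47.5, 248.5 and 706 CPM in WT on days 0, 3 and 5, at 2.21, 50.5 and 40.1 in Per1KO, and at 6.06, 51.5 and 54.7 in Per2KO. Both knockouts lay below WT on each day, and each population was higher on days 3 and 5 than on day 0. The WT level was 21.5, 4.93 and 17.6 times that of Per1KO on days 0, 3 and 5, and 7.83, 4.83 and 12.9 times that of Per2KO. The difference was -3.59 (log2, SE 0.42, adjusted p = 0.00125) in Per1KO and -3.04 (SE 0.41, adjusted p = 0.00224) in Per2KO, and both stood in every alternative fit. The rise from day 0 was 3.35 (SE 0.42, adjusted p = 0.00105) on day 3 and 3.71 (SE 0.42, adjusted p = 0.000377) on day 5. Adamts14, a second enzyme of this kind, stood at 96.6, 99.8 and 182.5 CPM in WT, at 67.4, 70.1 and 87.3 in Per1KO, and at 73.7, 62.5 and 76.5 in Per2KO. All knockout libraries lay below all WT libraries, and the difference of -0.71 (SE 0.17, adjusted p = 0.0231) and -0.78 (SE 0.17, adjusted p = 0.0158) was lost as a call without day 3 (-0.82 and -0.84) or day 5 (-0.52 and -0.54). The third enzyme, Adamts3, had at most 2 counts.

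Adamts12 and Adamts16 had the widest gaps among the other Adamts genes. Adamts12, which cleaves cartilage oligomeric matrix protein, stood at 3.25, 16.1 and 32.1 CPM in WT on days 0, 3 and 5, at 0.284, 1.88 and 2.09 in Per1KO, and at 0.433, 2.42 and 3.73 in Per2KO. Within each day both knockouts lay below WT, and all 3 populations rose. The difference was -3.52 (log2, SE 0.22, adjusted p = 5.7e-05) in Per1KO and -2.92 (SE 0.21, adjusted p = 0.000118) in Per2KO, and both calls stood without any 1 day. The rise was 2.50 (SE 0.23, adjusted p = 0.000247) on day 3 and 3.10 (SE 0.23, adjusted p = 4.11e-05) on day 5.

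Adamts16, a secreted protease, stood at 1.13, 18.8 and 132 CPM in WT, at 0.182, 1.59 and 0.985 in Per1KO, and at 0.394, 1.70 and 1.44 in Per2KO. The WT level climbed on each later day, while the knockouts stayed under 2 CPM, and on day 5 the WT level was 134 times that of Per1KO and 92.1 times that of Per2KO. The fitted difference was -5.08 (SE 0.94, adjusted p = 0.00937) and -4.62 (SE 0.93, adjusted p = 0.0131), and both calls were lost without day 3 (-6.09 and -5.15) and with no filter (-5.003 and -4.54), and the Per2KO call with only the libraries of Per2KO and WT (-4.27). Without day 5 the difference was smaller (-3.31 and -2.81). Its rise of 3.07 (SE 0.99, adjusted p = 0.0458) on day 3 and of 4.04 (SE 0.99, adjusted p = 0.0128) on day 5 was lost as a call without Per1KO (2.85 and 4.55), and with no filter (3.08 and 4.02), and on day 3 also without Per2KO (3.79). Without WT the day 5 rise was 2.06.

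Adamts7, a relative of Adamts12, stood at 115, 147 and 148 CPM in WT, at 59.1, 178 and 129.8 in Per1KO, and at 46.0, 161 and 147 in Per2KO. The knockouts were below WT on day 0 and above it on day 3. It rose by 1.24 (SE 0.28, adjusted p = 0.0121) on day 3 and by 1.03 (SE 0.28, adjusted p = 0.0177) on day 5, and both calls were lost without Per1KO (1.04 and 0.97) or Per2KO (0.97 and 0.72). Adamts6 and Adamts10, a related pair tied to fibrillin microfibrils, passed no test over all 9 libraries. Adamts6 spanned 28.3 to 54.3 CPM. Without WT it was called lower on days 3 and 5 (-0.54 and -0.76), and without day 0 lower in Per1KO (-0.725). Adamts10 spanned 8.76 to 9.68 CPM in WT and 5.50 to 8.19 in the knockouts, which did not overlap, with a difference of -0.37 (SE 0.18, adjusted p = 0.189) in Per1KO and -0.32 (SE 0.18, adjusted p = 0.247) in Per2KO. Without WT, Adamts10 was called lower on day 5 (-0.45).

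All 5 Adamts-like genes were tested and all 5 rose on both days. Of these, Adamtsl2 passed the filter only through libraries of those days, so its rise was favoured. Adamtsl2, which binds fibrillin and latent growth factor complexes and is mutated in geleophysic dysplasia, had the largest fold change of the members. Its promoter is shown for that reason, at chr2:27079129-27079428 (GRCm38.p6, RefSeq, plus strand, 5′ to 3′), with CAGCTG and TATAAA in capitals. CAGCTG began 158 and 22 bases before the start and TATAAA 30 bases before it.
Adamtsl2: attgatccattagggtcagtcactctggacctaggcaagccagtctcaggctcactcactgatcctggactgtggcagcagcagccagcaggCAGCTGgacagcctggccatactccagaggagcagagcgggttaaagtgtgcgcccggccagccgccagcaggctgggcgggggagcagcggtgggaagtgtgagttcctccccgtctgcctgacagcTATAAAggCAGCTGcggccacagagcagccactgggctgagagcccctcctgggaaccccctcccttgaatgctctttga

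Adamtsl2 stood at 0.141, 37.95 and 36.95 CPM in WT on days 0, 3 and 5, at 0.0608, 19.4 and 45.8 in Per1KO, and at 0.0197, 15.8 and 32.5 in Per2KO. The day 0 libraries held 1, 3 and 1 counts in WT, Per1KO and Per2KO, and all later libraries stood far above them. The ratio of day 5 to day 0 was 753 (95% exact interval 257 to 3656) in Per1KO, and with 1 count on day 0 it was 261.5 (46.3 to 10390) in WT and 1651 (296 to 65250) in Per2KO. These intervals overlap. The fitted rise was 8.68 (log2, SE 0.45, adjusted p = 3.59e-05) on day 3 and 9.46 (SE 0.44, adjusted p = 7.61e-06) on day 5. Neither knockout differed from WT by the test, at -0.36 (SE 0.30, adjusted p = 0.426) in Per1KO and -0.80 (SE 0.30, adjusted p = 0.0974) in Per2KO.

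Adamtsl3 stood at 5.93, 16.8 and 50.8 CPM in WT, at 0.669, 4.39 and 5.26 in Per1KO, and at 1.89, 4.76 and 7.92 in Per2KO. Both knockouts lay below WT within each day. The difference was -2.75 (log2, SE 0.33, adjusted p = 0.00113) in Per1KO and -2.10 (SE 0.32, adjusted p = 0.00345) in Per2KO, where the call was lost without day 5 (-1.73). Adamtsl3 rose by 1.82 (SE 0.32) on day 3 and by 2.66 (SE 0.32) on day 5, with adjusted p-values of 0.00442 and 0.000467. Adamtsl1, known as punctin, stood at 4.66, 27.0 and 51.5 CPM in WT, at 0.8315, 13.9 and 26.8 in Per1KO, and at 0.374, 16.6 and 26.9 in Per2KO. The knockouts lay below WT within each day, but the difference of -1.31 (SE 0.44, adjusted p = 0.0764) and -1.38 (SE 0.44, adjusted p = 0.0643) did not pass the test. It was called with DESeq2 (-1.49 and -1.62) and without day 0 (-0.97 and -0.83). Adamtsl1 rose by 3.98 (SE 0.49) on day 3, a call lost without Per1KO (3.87), and by 4.82 (SE 0.49) on day 5.

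Adamtsl4, which binds fibrillin and is mutated in displaced lenses, was, like Mmp10, called higher in both knockouts. It stood at 13.3, 29.0 and 37.8 CPM in WT, at 15.9, 43.0 and 48.9 in Per1KO, and at 16.4, 43.3 and 53.8 in Per2KO. Both knockouts lay above WT within each day. The difference was 0.40 (log2, SE 0.12, adjusted p = 0.0484) in Per1KO and 0.47 (SE 0.12, adjusted p = 0.0284) in Per2KO. The Per1KO call was lost in 5 of 9 alternative fits, among them those without any 1 day (0.45, 0.31 and 0.41 without days 0, 3 and 5), and the Per2KO call in 3 of 9, among them those without day 3 (0.40) or day 5 (0.44). Adamtsl4 rose by 1.33 (SE 0.12) and 1.62 (SE 0.12) on days 3 and 5. Adamtsl5 stood at 100.1, 145 and 226 CPM in WT, at 84.4, 187 and 276 in Per1KO, and at 111, 190.1 and 259.8 in Per2KO. The populations overlapped, and it rose by 0.82 (SE 0.14) and 1.37 (SE 0.14), the day 3 call being lost without Per1KO (0.66) or Per2KO (0.84).

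The change from day 0 to days 3 and 5 in each knockout was compared with that in WT as an interaction. In edgeR 0 of 31 members passed in either knockout, as did 0% of all genes. At an unadjusted p under 0.05, 6 members changed more steeply upward than WT and 1 less in Per1KO, beside 817 and 609 of all 13324 genes, and 7 and 1 in Per2KO, beside 944 and 839. The proteoglycanases supplied several of these, with Adamts5 at 2.78 (log2, SE 0.59, adjusted p = 0.262) in Per1KO and 1.94 (SE 0.58, adjusted p = 0.258) in Per2KO, and Adamts15 at 2.66 (SE 0.74, adjusted p = 0.351) and 2.69 (SE 0.74, adjusted p = 0.229). DESeq2 called 4 members in Per1KO (Adamts5, Adamts15, Timp2 and Mmp3), beside 1.86% of all genes, and 5 in Per2KO (Adamts4, Adamts7, Adamts15, Timp2 and Mmp3), beside 3.57%. Without the filter on low counts, edgeR called Adamts5 and Adamts15 in Per1KO, and those with Adamts4 and Adamts7 in Per2KO, beside 1.2% and 2.17% of all genes. For Mmp3, with 0 counts in WT on both later days, the fitted size depends on the prior count and is not given.

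The knockouts were not separated from each other. In edgeR 0 of 31 members and 0% of all genes passed, DESeq2 called 0 members, and at an unadjusted p under 0.05 Mmp10 and Adamts12 were lower in Per1KO than in Per2KO, by -0.66 (log2, SE 0.21) and -0.59 (SE 0.21), each with an adjusted p of 1. Such a result does not show that the knockouts act alike. Day 5 and day 3 were also not separated, with 0 members called against 1.79% of all genes and 7 higher at an unadjusted p under 0.05 beside 944 of all 13324 genes, while DESeq2 called Adamtsl5 higher (0.55). Without WT, 3 members were called higher on day 5 than on day 3 (Mmp3, Adamtsl2 and Adamtsl5), with 10.5% of all genes called, and in a fit of only those days 3 (Mmp3, Adamtsl1 and Adamtsl5), with 4.43%.

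Other genes of matrix proteolysis were followed in 5 lists. In the list of plasminogen activation, which supplies the protease plasmin that activates several Mmp proforms, edgeR called none of Plau, Plat, Plaur and Serpine2 in either knockout. Of these genes only Serpine2 reached an unadjusted p under 0.05, with higher values in both knockouts, and DESeq2 called both of those differences. With differentiation the receptor gene Plaur fell from 87.3 to 12.1 CPM in WT, from 110 to 10.45 in Per1KO and from 117 to 10.9 in Per2KO between days 0 and 5 (-3.25, log2, SE 0.22, adjusted p = 2.88e-05). The activator gene Plat rose by 0.85 (SE 0.24, adjusted p = 0.0222). Plg, the plasminogen gene itself, had 0 counts in WT and stayed under 0.05 CPM in the knockouts.

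In the list of activation and cell-surface control, 4 of 9 tested genes were lower in Per1KO and 3 in Per2KO, against 10.1% and 10.6% of all genes. Sdc1, a heparan sulfate proteoglycan of the cell surface, stood at 306 to 480.2 CPM in WT and 129.6 to 216 in the knockouts, with differences of -1.11 (log2, SE 0.13, adjusted p = 0.00111) and -1.14 (SE 0.13, adjusted p = 0.000966). Furin, the convertase that activates membrane-anchored Mmp and Adamts proforms, stood at 209 to 226.5 CPM in WT and 134 to 146 in the knockouts, a difference of -0.57 (SE 0.10, adjusted p = 0.00849) and -0.63 (SE 0.10, adjusted p = 0.00497). For both genes all knockout libraries lay below all WT libraries. Reck, a membrane inhibitor of Mmp enzymes, passed neither knockout test, at 3.10 to 9.90 CPM in WT and 3.32 to 4.89 in the knockouts.

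Of 18 tested proteases and cofactors in the list of other matrix and sheddase proteases, 5 were lower in each knockout, against 10.1% of all genes in Per1KO and 10.6% in Per2KO. Adam12, a membrane protease made at muscle fusion, stood at 4.66, 39.95 and 57.0 CPM in WT and at most 4.85 CPM in the knockouts (-2.76, SE 0.50, adjusted p = 0.00865 in Per1KO and -3.27, SE 0.50, adjusted p = 0.00395 in Per2KO). Of 8 tested substrates, 2 were lower in each knockout (against the same 10.1% and 10.6%), among them the proteoglycan gene Bgn in both (-1.29, SE 0.27, adjusted p = 0.0131 and -1.26, SE 0.26, adjusted p = 0.0137). Of 11 AP-1 and related regulators, 3 were lower in Per1KO and 4 in Per2KO, again against 10.1% and 10.6%. Fosl2, a Fos family gene, stood at 202.5 to 362 CPM in WT and 75.3 to 107 in the knockouts (-1.47, SE 0.18, adjusted p = 0.00122 and -1.30, SE 0.18, adjusted p = 0.00207). Fosl1, another Fos family gene, fell with differentiation, from 66.9 to 5.28 CPM in WT, from 105 to 9.95 in Per1KO and from 56.2 to 10.7 in Per2KO between days 0 and 5 (-3.06, SE 0.28, adjusted p = 0.000113).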

How the data were processed

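Per the labels, libraries of polyadenylated RNA (TruSeq) gave single reads on an Illumina HiSeq. The authors deposited raw read counts for each Ensembl gene, used here unchanged. The submitters' processing notes name CASAVA 1.8, HISAT2 2.1.0 and build mm10; the counting program, annotation and use of strand are not given in the sources used here. Positions and exon lengths came from GENCODE M21 (GRCm38), and promoters from RefSeq (GRCm38.p6). The table held 0 rows naming no gene, and 47224 of 47729 genes matched a symbol. Mmp1a, a polymorphic pseudogene in that annotation, was left out.

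The 13324 genes reaching 1 CPM (before TMM scaling) in 3 or more libraries were tested with edgeR 4.0.16 (limma 3.58.1, R 4.3.3), using robust quasi-likelihood tests, TMM scaling and Benjamini-Hochberg adjustment over all tested genes, called at an adjusted p under 0.05. Genotype and day were fitted additively over all 9 libraries with 4 residual degrees of freedom, so that the days serve as replicates of each genotype and the populations as replicates of each day. The interaction of genotype with days 3 and 5 against day 0 had 3. Nothing says that the samples came from separate cultures of a genotype, so p-values measure the spread between these samples. The fit was tested on simulated counts. Library pairs were compared on log2 CPM (prior count 2), counting members past 2-fold with no test. Ratios carry exact Clopper-Pearson 95% intervals, and a count of 0 was set to a floor of 3 counts; both cover counting error only. DESeq2 1.42.0, other filters and scaling, and left-out days or populations were alternatives. Additive fits without a day or a population, or with only the 6 libraries of 2 days or 2 genotypes, had 2 residual degrees of freedom in place of 4. Whether a call lost in such a fit was lost through the smaller number of libraries was not tested. Any member could be named, and of other lists at most the 2 largest rises and falls. The members, lists and tests were chosen with earlier results of these data known. One gene of the related lists is not reported here.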

Additional observations from a re-analysis of the deposited data

How the results depend on the processing

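Among 608 recomputed values of the members' calls under the alternatives, 521 kept direction and call, 87 kept direction and lost the call, and 0 reversed. DESeq2 size factors lost 0 of 71, the DESeq2 test 1, and the fits without day 3, day 5, Per1KO and Per2KO lost 10 of 23, 11 of 23, 19 of 46 and 16 of 45. With at least 5 CPM in 3 libraries, fewer genes were tested. There 7 of 24 members were called in each knockout, beside 17.6% of all genes in Per1KO and 18.5% in Per2KO. Leaving out a day gave 6 to 14 called members in each knockout, in place of 13 in Per1KO and 12 in Per2KO. In those fits 5.29 to 20.4% of all genes were called in Per1KO and 5.82 to 23% in Per2KO. Leaving out a population gave 11 to 24 on day 3, in place of 22, beside 8.37 to 58% of all genes. For day 5 against day 3 it gave 0 to 3, in place of 0, beside 0 to 10.5% of all genes. In that comparison DESeq2 called 1 (5.5% of all genes) and a fit of only the 6 libraries of those days 3 (4.43%). For the response to differentiation, in place of 0 called, DESeq2 called 4 in Per1KO and 5 in Per2KO, beside 1.86% and 3.57% of all genes. No filter gave 2 and 4 (1.2% and 2.17%), and both knockouts as 1 level gave 1 (2.57%). The cause was not tested. In single day 0 pairs, 15 members differed from WT at least 2-fold in each knockout, beside 16.8% of all genes in Per1KO and 17.5% in Per2KO. At 5 CPM or more in either library, where fewer members were compared, the counts were 8 and 9. No share of all genes was taken for these, so they cannot be set against the 15. No paired analysis was possible by replicate because the labels number no replicates; day was already a term of the additive fit, which compares populations within a day. The depth of the WT libraries limits genes under about 1 CPM.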
